A study of Rattus norvegicus with 6 samples.

Results

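The proteasome genes of H9c2 cells were compared between libraries labelled as PERK overexpression and control libraries. H9c2 is a line derived from embryonic rat heart. The genes were chosen by name: every entry of the deposited gene table whose symbol starts with Psm, a letter from a to g and a digit, with pseudogene names left out. This gave 49 of 26126 entries. Of the 49, Psmc3ip matches the name but is no proteasome subunit: it encodes a protein that interacts with an ATPase subunit and acts in meiotic recombination. It is described with the others and left out of the classes. The name rule removed Psme1-ps1, which had 7 to 75 counts per library.

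All 6 RNA-seq libraries came from cells exposed to simulated ischemia followed by reperfusion. For ischemia the cells sat in an acidic, lactate-rich buffer under a mix of nitrogen and carbon dioxide, and no untreated library is analysed here. The control group held 3 libraries from cells given a control adenovirus, and the PERK group held 3 from cells given an adenovirus named adPERK. The labels do not name the promoter of either virus, nor do they say whether each library of a group is its own culture. The p-values therefore speak of library-to-library spread, possibly a technical one. PERK, encoded by Eif2ak3, is a kinase of the endoplasmic reticulum that lowers general translation under stress.

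Total counts ran from 77923398 to 119087414 per library. Control replicate 3 stood apart with 19287 entries above 0, against 15377 to 16685 in the other 5 libraries. Eif2ak3 stood at 26.4, 26.9 and 24.0 counts per 1000000 (CPM) in control and at 26.5, 26.5 and 26 CPM with the PERK label (log2 fold change 0.03, SE 0.06, edgeR adjusted p = 0.887). It does not check the labels, and a transgene that this count misses was not tested, so every direction here rests on the labels alone. Of the markers of this myoblast line, 13 of 15 listed entries were tested, 7 above 0 and 6 below. The list had 1 call: Myog, the myogenic factor myogenin, fell from 486 ± 10.2 to 400 ± 9.25 CPM (SD, n = 3), a difference of -0.28 on the log2 scale (edgeR adjusted p = 0.0137). Mef2c, another myogenic factor, had 17.9 ± 0.569 and 24.1 ± 5.12 CPM in groups that did not overlap (0.43, edgeR adjusted p = 0.268), and Myf5 was at 0 in all libraries. The summed level of the whole myoblast list overlapped, at 1061.7 to 1171.5 CPM in the controls and 1042.6 to 1109.6 CPM with the PERK label. Of the lists for other cell types, the summed leukocyte markers (4 of 8 tested, Lyz2 at 0) overlapped, at 8.54 to 12.3 and 9.98 to 11.2 CPM. Summed epithelial markers (3 of 7 tested, Krt19 at 0) did not, at 48.7 to 52.9 CPM in the controls and 53.2 to 54.3 CPM with the PERK label. Summed endothelial markers (1 of 6 tested, Cldn5 at 0) did not either, at 1.29 to 1.99 and 0.638 to 0.978 CPM. The leukocyte sum came mostly from Cd14 (means 9.17 and 9.22 CPM) and the endothelial sum from Tek (1.4 and 0.792 CPM). The epithelial sum came mostly from Krt8 (39.4 and 41.3 CPM) and Krt7 (11.7 and 12.3 CPM). Ptprc, Cdh5, Kdr, Vwf, Emcn, Epcam, Cdh1, Krt18 and Krt5 had group means of 0.139 CPM or less. The sums therefore do not measure the share of a cell type. The part of these cell type markers in the proteasome values was not tested.

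The proteasome is the main protease of the cytosol and nucleus. Its core particle is a barrel of alpha rings, which gate the entry, and beta rings, of which the subunits encoded by Psmb5, Psmb6 and Psmb7 cut proteins. A regulatory particle binds ubiquitin chains, removes them, and unfolds the substrate with a ring of ATPases. Interferon replaces the cutting subunits by those of Psmb8, Psmb9 and Psmb10, which makes the immunoproteasome. When proteasome activity is short, the transcription factor encoded by Nfe2l1 raises subunit genes through antioxidant response elements. Heart muscle relies on the proteasome to clear damaged proteins after ischemia.

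Promoter sequences of 4 members are printed because they carry matches to the elements of these known controls and belong to genes whose values are given in the next paragraphs. Psmb5 and Psmb8 encode the subunits that cut after hydrophobic residues in the constitutive and the immune form. Psmb10 is the immune counterpart of Psmb7, and Psme4 encodes a nuclear activator. Each runs 5′ to 3′ on the gene's strand from 250 bases before to 50 bases after its start in RefSeq (GRCr8). Positions are chr15:32047330-32047629 (minus strand) for Psmb5, chr20:4656982-4657281 (minus) for Psmb8, chr19:50743243-50743542 (minus) for Psmb10 and chr14:108706393-108706692 (plus) for Psme4. Capitals mark the antioxidant response element core TGACNNNGC (Psmb5, Psme4), the interferon-stimulated response element core GAAANNGAA (Psmb8, and 3 matches in Psmb10) or a CCAAT box (Psmb8), on either strand.
Psmb5: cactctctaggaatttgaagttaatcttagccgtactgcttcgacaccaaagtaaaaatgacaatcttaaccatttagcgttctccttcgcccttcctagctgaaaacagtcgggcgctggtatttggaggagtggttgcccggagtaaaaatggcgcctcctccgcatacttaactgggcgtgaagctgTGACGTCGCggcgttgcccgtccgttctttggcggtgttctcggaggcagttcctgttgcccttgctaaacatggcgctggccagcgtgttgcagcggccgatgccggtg
Psmb8: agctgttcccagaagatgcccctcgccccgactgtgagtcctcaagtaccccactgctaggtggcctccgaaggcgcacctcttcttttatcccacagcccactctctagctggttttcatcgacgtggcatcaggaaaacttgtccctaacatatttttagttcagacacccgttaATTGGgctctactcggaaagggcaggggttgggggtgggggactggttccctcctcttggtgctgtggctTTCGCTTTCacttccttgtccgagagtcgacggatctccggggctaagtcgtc
Psmb10: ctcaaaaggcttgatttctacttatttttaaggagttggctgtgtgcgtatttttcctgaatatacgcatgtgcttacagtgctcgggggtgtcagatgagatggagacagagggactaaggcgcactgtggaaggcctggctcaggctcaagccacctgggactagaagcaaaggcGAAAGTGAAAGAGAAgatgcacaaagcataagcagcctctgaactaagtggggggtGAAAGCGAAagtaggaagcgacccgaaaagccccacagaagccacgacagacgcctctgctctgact
Psme4: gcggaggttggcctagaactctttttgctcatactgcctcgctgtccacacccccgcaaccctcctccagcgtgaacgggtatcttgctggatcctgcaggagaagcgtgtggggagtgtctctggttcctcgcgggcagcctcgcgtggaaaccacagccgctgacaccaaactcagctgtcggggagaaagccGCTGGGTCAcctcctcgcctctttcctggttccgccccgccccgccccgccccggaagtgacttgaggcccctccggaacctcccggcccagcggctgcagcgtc

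No proteasome gene passed the test between the groups. Of the 49 entries, 48 passed the low-count filter and were tested, and 0 had an edgeR adjusted p under 0.05, beside 0.421% of all 14488 tested entries. The smallest edgeR adjusted p was 0.247. DESeq2 called 0 of the 44 it gave an adjusted p (smallest 0.104), beside 4.04% of the 9701 entries it gave one. With limma voom 0 were called (smallest 0.2), beside 0.759% of the entries it tested. At an unadjusted p under 0.05 edgeR gave 6 of 48, beside 11.2% of all tested entries. Of these 6, 5 lay above 0 and 1 below, where the background shares are 5.94% and 5.29%. The share of both directions together is close to the background. DESeq2 and limma voom gave 6 and 7 at an unadjusted p under 0.05, beside 11.2% and 12.2%. In the authors' deposited table, 0 of the 48 members with an adjusted p were under 0.05, beside 396 of all 17483 such entries. The smallest among the members was 0.582, for Psmd7.

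The cutting subunits of the constitutive core were measured closely and lay near each other in both groups. Psmb5 stood at 70.0, 72.7 and 72.1 CPM in the controls and at 73.3, 73.9 and 75.2 CPM in the PERK-labelled ones. The Psmb5 groups did not overlap, but the difference was 0.05 on the log2 scale (SE 0.04, 95% interval -0.04 to 0.15, edgeR adjusted p = 0.703). Groups that do not overlap were found for 18.2% of all tested entries. Psmb6, which cuts after acidic residues, had 72, 65.3 and 68.0 CPM in the controls and 70.6, 75.0 and 70.0 CPM in the PERK-labelled ones, and its groups overlapped. Psmb7, which cuts after basic residues, had 185, 181 and 182 CPM in the controls and 194, 190.5 and 184 CPM in the PERK-labelled ones. Control replicate 1 and PERK replicate 3 gave nearly the same Psmb7 value, and the groups differed by 0.06 on the log2 scale (SE 0.03, edgeR adjusted p = 0.592).

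The immune counterparts were split: Psmb10 was well counted, while Psmb8 and Psmb9 were near 0 in every library. Psmb10 had 32.0, 32.4 and 30.5 CPM in the controls and 36, 32.7 and 33.9 CPM in the PERK-labelled ones. All PERK-labelled libraries lay above all control ones, though PERK replicate 2 and control replicate 2 nearly met. The groups differed by 0.11 on the log2 scale (SE 0.05, edgeR adjusted p = 0.456). Psmb8 had 31, 41 and 15 counts in control and 0, 44 and 40 in the PERK-labelled ones. Psmb9 had 70, 20 and 19 counts in control and 81, 34 and 19 in the PERK-labelled ones. These counts do not order the groups: replicate 1 of both groups was the highest for Psmb9, and the Psmb8 interval ran from -2.96 to 2.46. The 0 of Psmb8 in PERK replicate 1 allows up to 18 counts, or 0.182 CPM, since low counts fell near multiples of about 6 and the limit was set at 3 such steps. Such limits cover counting error only. CPM is not scaled by gene length, so levels are not compared between genes.

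**Figure D1:**
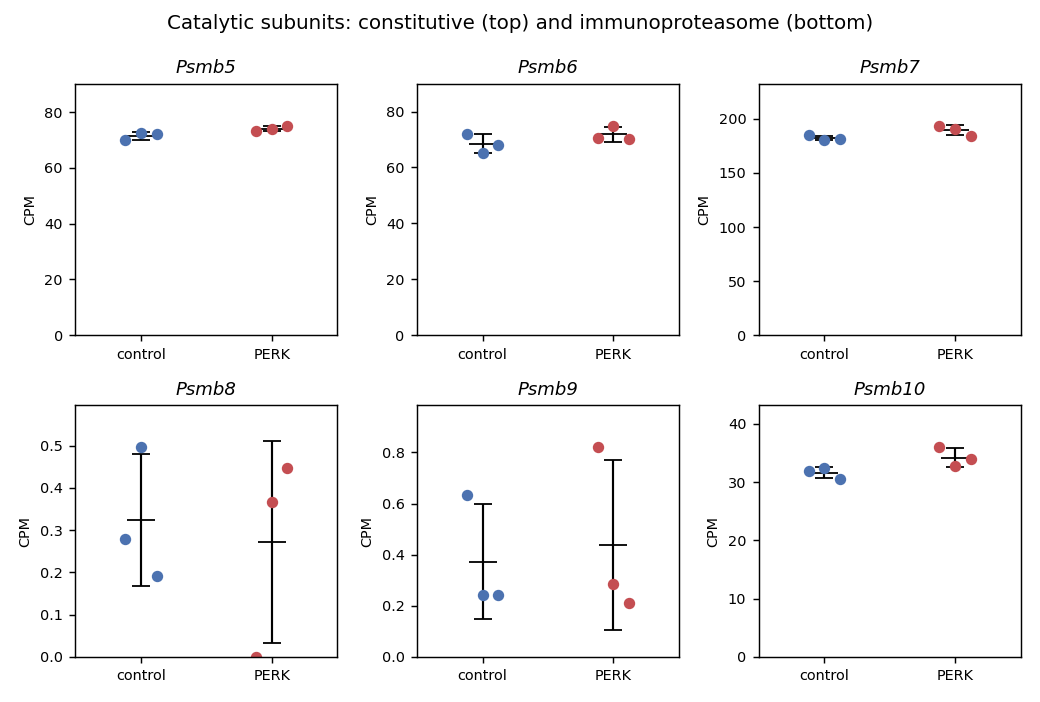
Expression of the 6 cutting subunits in CPM (y axis, from 0, scaled per gene) by group (x axis); points are libraries, 3 per group, and bars show the mean and SD. Psmb8 and Psmb9 stay under 1 CPM in every library, while the groups of Psmb5 and Psmb10 do not overlap but lie close together.

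The other core subunits held the same narrow range. The 7 constitutive alpha genes, Psma1 to Psma7, had log2 fold changes from -0.05 (Psma5) to 0.09 (Psma6), with 6 above 0 and a median of 0.05. Psma6 had 92.3, 92.0 and 91.6 CPM in the controls and 102, 98.2 and 94.1 CPM in the PERK-labelled ones (SE 0.04, edgeR adjusted p = 0.481). Control replicates of Psma6 were almost level, while PERK replicate 1 stood above the other PERK replicates. Psma1 took the most counts of the alpha class, with 171, 165 and 167 CPM in the controls and 183, 175 and 164 CPM in the PERK-labelled ones, where PERK replicate 3 fell below every control. The 7 constitutive beta genes had a median of 0.04, from -0.01 (Psmb2) to 0.07 (Psmb6). Psma8, an alpha subunit used in the testis, had 7 to 23 counts per library, too few to place it, and Psmb11, the thymus form, had 0 in 3 libraries and was not tested.

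In the regulatory particle log2 fold changes ran from -0.05 (Psmd11) to 0.11 (Psmd8). The 6 ATPase genes had a median of 0.02, 3 above 0 and 3 below, and the 11 other genes a median of 0.04, 9 above 0 and 2 below. The median of all tested entries was -0.0040, with 48.7% of them above 0. Psmd1, a large scaffold of the base, had 222, 222 and 219 CPM in the controls and 235, 235 and 234 CPM in the PERK-labelled ones. Both Psmd1 groups were very tight and did not overlap (log2 fold change 0.09, SE 0.03, edgeR adjusted p = 0.275). Its unadjusted p of 0.013 was among the 5 smallest of the members.

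Psmd4, a ubiquitin receptor, had 77.8, 74.6 and 74.1 CPM in the controls and 82.8, 77.0 and 83.4 CPM in the PERK-labelled ones. PERK replicate 2 of Psmd4 fell within the control range, and the difference was 0.10 on the log2 scale (SE 0.05, edgeR adjusted p = 0.483). Psmd14, the enzyme that takes ubiquitin off the substrate, had 109, 103 and 107 CPM in the controls and 115, 108 and 105 CPM in the PERK-labelled ones, with overlapping groups. Psmc5, an ATPase, showed no order at all: 71.2, 75.7 and 74.7 CPM in control against 77.0, 75.6 and 68.1 CPM in the PERK-labelled ones. Among ATPases Psmc2 had an interval that left out 0 (0.001 to 0.162), with 158, 152 and 155 CPM in the controls and 167, 163 and 162 CPM in the PERK-labelled ones (edgeR adjusted p = 0.439). Psmc1, which took the most counts of the ATPases, had 262, 265 and 245 CPM in the controls and 274, 263 and 263 CPM in the PERK-labelled ones. Psmd2, a scaffold that docks ubiquitin shuttles, took the most counts of all members, with 358, 381 and 362 CPM in the controls and 369, 386 and 372 CPM in the PERK-labelled ones. Both overlapped between the groups, at log2 fold changes of 0.05 and 0.04.

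**Figure D2:**
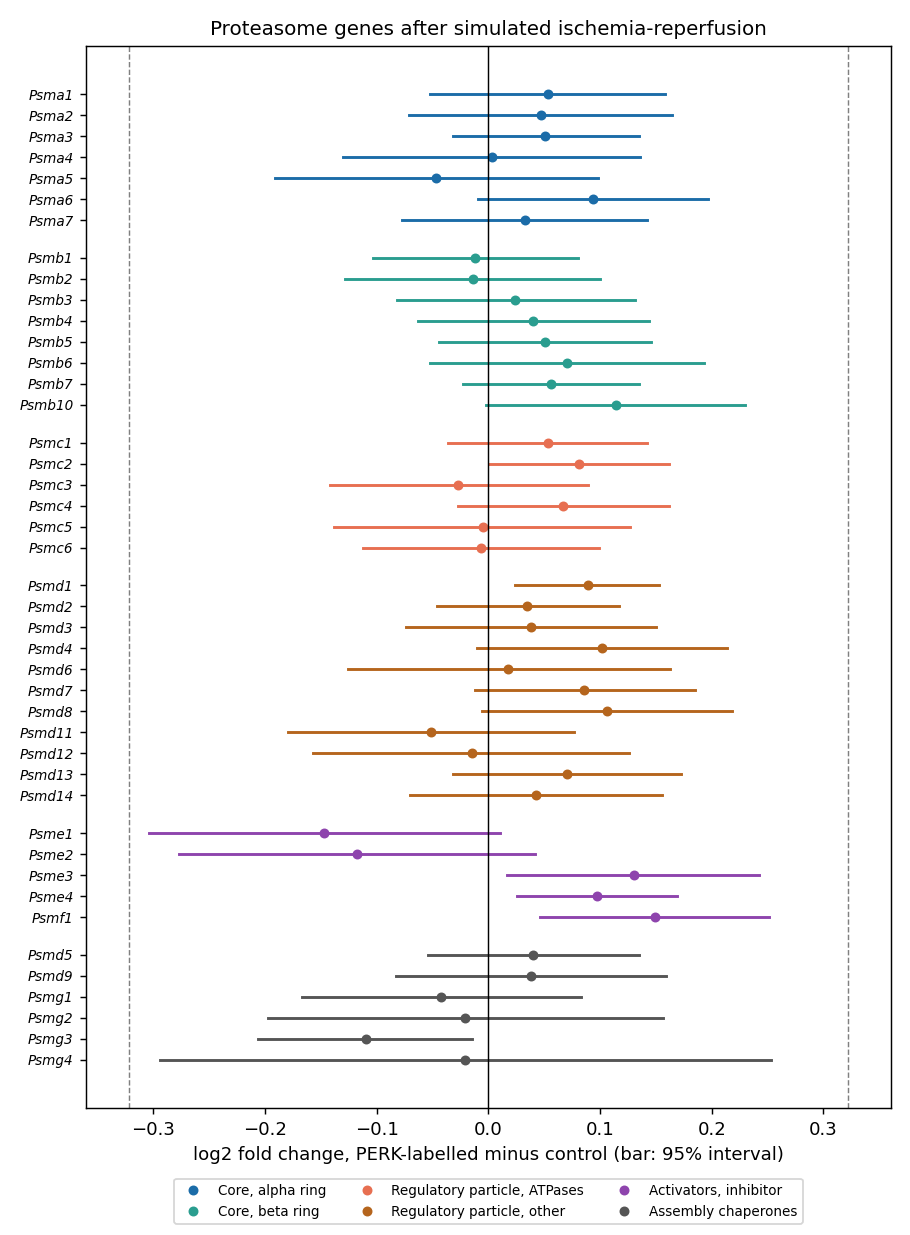
Log2 fold change (x axis, PERK-labelled minus control) of the 43 proteasome genes with a mean of at least 5 CPM (y axis, by class); points are edgeR estimates, bars their 95% intervals, and dashed lines mark 1.25-fold changes. All 43 intervals lie between -0.30 and 0.25, inside the dashed lines.

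Among genes of at least 5 CPM, the regulators that bind the core were the class with the widest range of differences, and they pointed both ways. Psmf1, an inhibitor of the core, had 29.6, 28.6 and 30.1 CPM in the controls and 32.0, 32.3 and 33.6 CPM in the PERK-labelled ones. The Psmf1 groups did not overlap, and its log2 fold change of 0.15 (SE 0.04, edgeR adjusted p = 0.247) had the smallest p of the members. Psme4, the nuclear activator, had 183, 185 and 187 CPM in the controls and 199, 196 and 199 CPM in the PERK-labelled ones. This too was a gap with tight groups (0.10, SE 0.03, edgeR adjusted p = 0.279). Psme3, the other nuclear activator, had 55.9, 58.1 and 52.6 CPM in the controls and 61.6, 60.2 and 60.6 CPM in the PERK-labelled ones (0.13, SE 0.05, edgeR adjusted p = 0.368).

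The interferon-induced activator pair of the cytosol lay on the other side of 0. Psme1 had 28.9, 32.4 and 30.7 CPM in the controls and 30.1, 26.7 and 26.3 CPM in the PERK-labelled ones. PERK replicate 1 was inside the control range of Psme1 (log2 fold change -0.15, SE 0.07, 95% interval -0.30 to 0.01, edgeR adjusted p = 0.468). Psme2, its partner in the same ring and, with Emc9 between, its neighbour in RefSeq, had 31.2, 29.4 and 33.4 CPM in the controls and 28.9, 31.0 and 26.8 CPM in the PERK-labelled ones (-0.12, SE 0.07, edgeR adjusted p = 0.571). Within each library, the ratio of Psme1 to Psme3 counts was 0.516, 0.558 and 0.584 in control and 0.489, 0.443 and 0.435 in the PERK-labelled ones. These ratios did not overlap between the groups. The ratio of Psme2 to Psme3 did overlap, at 0.558, 0.505 and 0.636 in control and 0.469, 0.515 and 0.442 in the PERK-labelled ones. Both ratios were chosen after the values were seen and have no test. RefSeq lists 3 named copies of Psme1, 3 of Psme2 and 4 of Psme3, and Emc9 overlaps Psme1, so their counts may be shared with other loci.

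**Figure D3:**
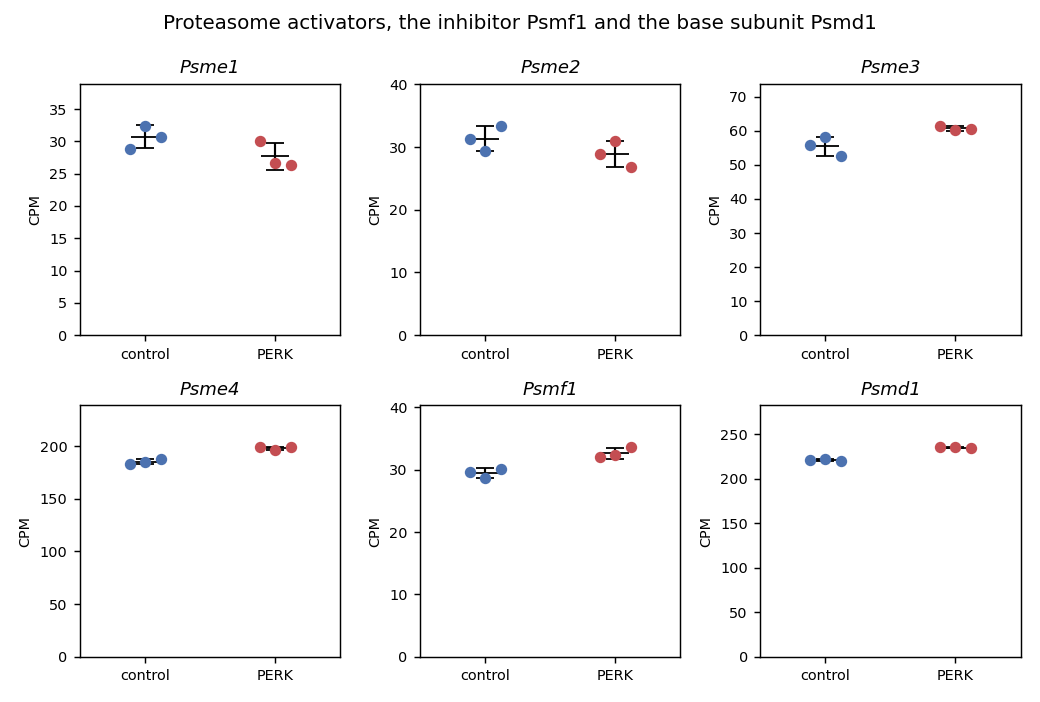
Expression in CPM (y axis, from 0, scaled per gene) of the 4 activator genes, the inhibitor Psmf1 and the base subunit Psmd1 by group (x axis); points are libraries, 3 per group, and bars show the mean and SD. The PERK-labelled points lie above the control points for Psme3, Psme4, Psmf1 and Psmd1, while those of Psme1 and Psme2 overlap with control.

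The assembly chaperones of the core, Psmg1 to Psmg4, all lay below 0, from -0.11 to -0.02, but Psmg1, Psmg2 and Psmg4 each turned above 0 with 1 library left out. Psmg3 had 30.6, 31.4 and 31.3 CPM in the controls and 28.4, 28.8 and 29.3 CPM in the PERK-labelled ones. Its groups did not overlap (SE 0.04, edgeR adjusted p = 0.366), and it was the 1 member below 0 with an unadjusted p under 0.05. Psmg4 was least precise of the 4, and its control replicate 3 had 8.46 CPM against 10.8 and 10.9 CPM in the other controls. The chaperones of the regulatory particle, Psmd5, Psmd9 and Psmd10, lay above 0. Psmd5, with the most counts of the chaperones, had 75.3, 73.3 and 73.7 CPM in the controls and 76.6, 77.3 and 74.7 CPM in the PERK-labelled ones, a small difference with overlapping groups (0.04, SE 0.04). Psmd10, which encodes gankyrin, had the highest log2 fold change of the members at 0.38, but from 143 to 327 counts per library and with an interval from -0.08 to 0.84. Psmc3ip, no subunit, had 8.63, 8.54 and 8.72 CPM in the controls and 8.62, 6.54 and 8.76 CPM in the PERK-labelled ones, with PERK replicate 2 alone low.

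Taking the members as a list, 31 of the 48 tested lay above 0 and 17 below, with a median of 0.04. Groups did not overlap for 11 of the 48 with PERK higher and for 2 of the 48 with PERK lower. Over all tested entries these shares were 9.66% and 8.55%. Psma8, with 7 to 23 counts per library, is among those lower. Of the 43 members other than Psmc3ip with a mean of at least 5 CPM, 11 had PERK higher and 1 lower. The list median is a description with no test, and members share the same 6 libraries. For the 43 subunit, regulator and chaperone genes with a mean of at least 5 CPM, the median SE was 0.05. Their median coefficient of variation within a group was 3.4%. Their intervals, each at 95% and not adjusted for the number of genes, ran no lower than -0.30 (Psme1) and no higher than 0.25 (Psmg4), so none reached a 1.25-fold change. That size was chosen after the fold changes were seen.

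The libraries did not contribute evenly. The 48 members other than Psmc3ip took 0.454%, 0.461% and 0.449% of all counts in control and 0.465%, 0.469% and 0.454% in the PERK-labelled ones. PERK replicate 3 thus had the same share as control replicate 1. In CPM, which uses scaled totals, the summed levels of these 2 libraries were 4551.3 and 4550.1. On that scale the groups just missed overlapping, so the overlap depends on the scaling. Of the 43 genes, 19 were highest in PERK replicate 1 and 16 lowest in control replicate 3. The median deviation from a gene's own mean was 0.05 and 0.03 on the log2 scale in PERK replicates 1 and 2 but -0.01 in PERK replicate 3. Without PERK replicate 1 the list median fell from 0.039 to 0.023, and without PERK replicate 3 it was 0.057. Without control replicate 3 it was 0.031.

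**Figure D4:**
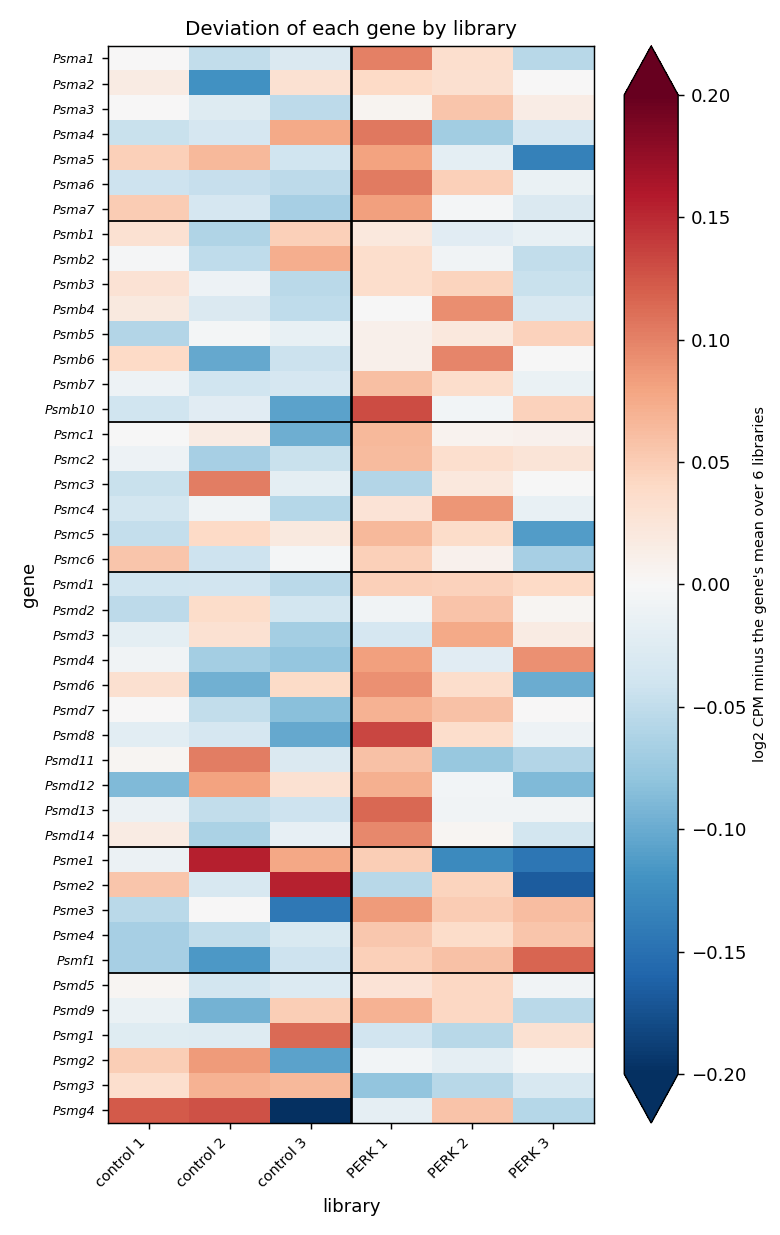
Deviation of log2 CPM from each gene's mean over the 6 libraries (colour, log2 scale, clipped at 0.2) for the 43 genes (rows, by class) in each library (columns). The PERK replicate 1 column holds the highest value of 19 genes, and PERK replicate 3 is mixed.

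Genes that work with the proteasome did not pass the edgeR test either. Of 75 tested entries in 6 lists, 0 had an edgeR adjusted p under 0.05 and 6 an unadjusted p under 0.05, while DESeq2 called 2 of the 68 it gave an adjusted p and limma voom 0. The background shares are 0.421% and 11.2% for edgeR, 4.04% for DESeq2 and 0.759% for limma voom, so the 8% at an unadjusted p and the DESeq2 calls were no more frequent than over all entries. The list of other subunits, assembly factors and regulators (10 tested, 7 above 0, median 0.02) held Zfand2a, a stress-induced protein that binds the regulatory particle. Zfand2a had 68.3 ± 5.39 CPM in the controls and 83.4 ± 3.27 CPM in the PERK-labelled ones (SD, n = 3), a difference of 0.29 on the log2 scale (SE 0.07, edgeR adjusted p = 0.152). Its groups did not overlap, and DESeq2 called it together with Mafk, a partner of NRF factors (0.25, SE 0.07, edgeR adjusted p = 0.205). The best-counted members of that list, Ube3c and Usp14, had log2 fold changes of 0.03 and -0.0020.

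Among the transcription factors that control proteasome genes (12 tested, 5 above 0, median -0.03), Nfe2l1 stood at 256 ± 13.9 and 253 ± 7.28 CPM and Stat3 at 122 ± 2.78 and 126 ± 2.84 CPM (SD, n = 3). Nfe2l2, the related antioxidant factor, was at 116 ± 0.575 and 114 ± 2.24 CPM, in groups that did not overlap. Foxm1 had 39 ± 1.73 and 35.3 ± 0.436 CPM, also without overlap (log2 fold change -0.14, edgeR adjusted p = 0.268). Of the 12, groups did not overlap for 3 with PERK higher and 2 with PERK lower. The background shares for these are 9.66% and 8.55%. The 4 ubiquitin genes had a median of -0.0020, with Rps27a at 405 ± 43.3 and 361 ± 53.6 CPM. Shuttle and segregase genes (13 tested, 8 above 0, median 0.0070) held Vcp, the segregase that pulls out ubiquitinated proteins, at 521 ± 4.29 and 547 ± 4.76 CPM (log2 fold change 0.07, edgeR adjusted p = 0.352), and Rad23b at 237 ± 2.18 and 249 ± 11.5 CPM. Ubiquitin activating and conjugating genes had 5 above 0 and 13 below (median -0.04), with Uba1 at 0.05 and Ube2s at -0.05.

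The list of antigen processing and interferon genes, which shares its known inducer with Psmb8 to Psmb10, Psme1 and Psme2, had 10 of 18 above 0 and a median of 0.03. B2m, the light chain of class I molecules, had 376 ± 3.59 and 379 ± 7.86 CPM (SD, n = 3). Tap1 and Tap2 pump peptides into the endoplasmic reticulum, and both neighbour Psmb8 in RefSeq. Tap1 had 15.1 ± 1.33 and 15.8 ± 0.646 CPM and Tap2 1.78 ± 0.0933 and 1.83 ± 0.0618 CPM. Neither Tap1 nor Tap2 separated the groups.

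The promoters of 44 members were in the RefSeq table, and those of Psma7, Psmb11, Psmd6, Psmd12 and Psmd14 were not used here. Shares below are of these 44 against 33469 promoters of the same length, on both strands. The 33469 were not matched to the members for base content or expression, and the 44 include Psmc3ip. The antioxidant response element core TGACNNNGC was in 8 members (18.2%, against 12.1%): Psma3, Psmb2, Psmb5, Psmb6, Psmd1, Psmd3, Psmd9 and Psme4. In Psmb5 it begins 60 bases before the start as TGACGTCGC, and in Psme4 it lies on the other strand, written GCTGGGTCA on the gene's strand. Of these 8, 7 had log2 fold changes above 0, from 0.04 (Psmd3, Psmd9) to 0.10 (Psme4), and Psmb2 had -0.01. Of all 48 tested members 64.6% lay above 0, and of the constitutive subunits 74.2%. The interferon-stimulated core GAAANNGAA was in 9 members (20.5%, against 9.71%): Psma4, Psmb2, Psmb3, Psmb8, Psmb10, Psmd7, Psmd11, Psme2 and Psmg4. Psmb9 and Psme1, which interferon also induces, had no match. Of the interferon-induced genes with a match, Psmb8 was near 0 and Psmb10 and Psme2 were not, in every library. The core of the element bound by ATF4 with CEBP factors, TGATGNAA, was in Psmb2 and Psmb4 (4.55%, against 3.98%), whose log2 fold changes were -0.01 and 0.04. CCAAT was in 22 members (50%, against 37.5%) and the GC box GGGCGG in 32 (72.7%, against 33.1%). Matches could overlap each other, as 2 of the 3 in Psmb10 do. A match is a description, not a site.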

How the data were processed

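The members and gene lists were chosen with earlier results of these data known. The labels' protocols give an Illumina TruSeq RNA kit for the 6 libraries. The authors deposited whole-number counts per gene, used here as deposited. Bowtie 0.12.2 and mm9, a mouse build, appear in the submitters' processing notes, yet the symbols are those of rat genes. The counting program, its annotation, its use of strand and its treatment of reads with several matches were not given in the sources used here. RefSeq lists named copies for 19 of the 49 members and another gene overlapping 14, whose counts are uncertain to that extent. Low counts fell near multiples of about 6 (period 5.85 to 6.15), so independent fragments may be fewer than counts. The authors' deposited table also gives log2 fold changes, p-values and adjusted p-values of their own fit. In a second deposited table, the names of all 6 value columns fit no sample label, so it was not used.

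PERK-labelled and control libraries, 3 against 3, were compared with edgeR 4.0.16 (R 4.3.3): TMM scaling, filterByExpr with a minimum count of 10 (14488 of 26126 entries kept), a quasi-likelihood fit with group as the only term, and Benjamini-Hochberg adjustment over all tested entries at 0.05. Standard errors and intervals came from the fold change and F statistic. CPM used TMM-scaled totals. Values in all libraries were given by rule for the cutting subunits, activators, Psmf1, Psmd4, Psmd14, Psmc5, the 5 smallest p-values, the 3 highest and 3 lowest fold changes of at least 5 CPM and the best-counted member of each class; Psmc2, Psma6, Psmg4 and Psmd10 were added after their values were seen. From a pathway list the rule took the 2 best-counted members where none passed. Zfand2a, Mafk, Nfe2l2, Foxm1, Tap1 and Tap2 were added after the fact. Some list members that the rule names are not reported here. Alternatives included DESeq2 1.42.0, limma 3.58.1 voom, other filters and scalings, and leaving out each library. Only the edgeR step was tested on simulated counts, which did not carry the spacing of low counts described above. Sequences came from RefSeq (GRCr8), and all 49 symbols matched.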

Additional observations from a re-analysis of the deposited data

How the results depend on the processing

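All alternatives for the proteasome genes left 0 members called. The list median ranged from 0.023 to 0.057 with 1 library left out and from 0.037 to 0.043 under the other alternatives. Of the 48 tested members, 17 turned sign with 1 library left out, with these ranges: Psmb8 -0.798 to 0.335, Psmb9 -0.586 to 0.848, Psmc3ip -0.186 to 0.009, Psmc5 -0.038 to 0.048, Psma2 -0.002 to 0.074, Psmb1 -0.046 to 0.009, Psma4 -0.05 to 0.042, Psmc6 -0.03 to 0.026, Psmc3 -0.056 to 0.017, Psmd6 -0.026 to 0.071, Psmb2 -0.044 to 0.02, Psmd12 -0.063 to 0.025, Psma5 -0.099 to 0.008, Psmd9 -0.000 to 0.075, Psmg1 -0.067 to 0.005, Psmg2 -0.076 to 0.015 and Psmg4 -0.13 to 0.036. Under the other alternatives only Psma4 did, at -0.001 with the stricter filter. The cause was not tested. Over all entries the 61 calls became 392 with DESeq2, 110 with limma voom, 94 without a low-count filter, 135 with a stricter filter, 132 with the robust fit, 93 with counts divided by 6 and 9 with a replicate block. With 1 library left out, which also lowers the number of samples, they ranged from 12 (without PERK replicate 1) to 38 (without control replicate 1). The 75 entries of the pathway lists had 0 calls except with DESeq2 (2, Zfand2a and Mafk). The replicate numbers are not shown to pair the libraries: over 14488 entries, same-numbered deviations correlated at -0.0631, 0.0114 and 0.029, and not every library correlated best with its own number. With the replicate block 0 members were called, with a list median of 0.039. Psmb8, Psmb9, Psma8, Psmb11 and Psmd10 are limited by depth.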
